A study of Mus musculus with 36 samples.

Results

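Liver miRNAs of the HFLF group were compared with those of the HF group, and no miRNA passed the test, although the abundant miRNAs were measured closely enough to bound any difference. The comparison holds the 6 HFLF and 5 HF liver libraries that the authors kept in their deposited liver table, 11 of the 36 small RNA libraries of the series. All miRNAs of the count table were members, with 1 line per mature name, and 488 of 1966 passed the filter on low counts. The animals were wild-type C57BL/6 males of the F1 generation, aged 24 weeks, that received chow up to week 6 and a set diet for the following 18 weeks. Their diet tags read HFLFD for HFLF, HFD for HF and LFD for LF, which supplies 5 further liver libraries as context. The treatment protocol of every sample nevertheless names LFD, so the labels leave unclear whether a group name is the mouse's own diet or that of its father, and neither do they say what the diets contain. HF replicate 6 and LF replicate 4 were not kept by the authors, with no reason in the sources used here. Only 368 and 316 miRNAs had a count in them, against 540 to 628 in the retained HF and 563 to 624 in the retained LF libraries. Results given below with these libraries included carry that limit. The title of the series places let-7 in the inheritance of metabolic decline through fathers, and let-7 is therefore described in full. Replicates are not stated to be separate mice, so every p-value measures the spread between these libraries, which may in part be technical.

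A miRNA is cut from a hairpin as a short duplex whose strands are called the 5p and 3p arms. Usually 1 arm is kept in the Argonaute protein and recognises messenger RNAs mainly through its seed, bases 2 to 8 from its 5′ end, so that miRNAs with a shared seed tend to share targets. In liver, hepatocytes make very large amounts of miR-122-5p, which acts in cholesterol and lipid metabolism, while let-7 restrains growth and insulin signalling in many tissues.

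The let-7 5p arms are shown because the series is about this family, with the shared seed in capitals. The sequences were taken from RefSeq, GRCm38.p6, which held 407 of the 488 miRNAs tested. The let-7a-5p locus found there lies on the minus strand at chr13:48538239-48538260 in an exon of the lincRNA 6720427I07Rik. The counted names include both let-7a-1-3p and let-7a-2-3p, so let-7a-5p counts cannot be assigned to this locus alone.
let-7a-5p: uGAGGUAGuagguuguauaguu
let-7b-5p: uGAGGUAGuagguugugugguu
let-7c-5p: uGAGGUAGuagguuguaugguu
let-7d-5p: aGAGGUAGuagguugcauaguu
let-7e-5p: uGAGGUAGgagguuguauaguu
let-7f-5p: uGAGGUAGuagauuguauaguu
let-7g-5p: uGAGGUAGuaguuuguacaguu
let-7i-5p: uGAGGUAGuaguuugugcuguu
miR-98-5p: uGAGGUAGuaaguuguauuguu
Counted from the 5′ end, let-7c-5p differs from let-7a-5p by A19G and let-7f-5p from let-7a-5p by G12A, so reads of these members may be shared.

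The miR-378 members are shown because miR-378b had the smallest p among miRNAs with counts in both groups, with each seed in capitals.
miR-378b: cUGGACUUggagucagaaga
miR-378c: aCUGGACUuggagucagaagc
miR-378d: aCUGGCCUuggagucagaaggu
On the plus strand at chr11:88352839-88352858, miR-378b lies within an intron of Msi2, which is on the other strand. Its sequence starts at base 2 of miR-378c and the pair then share 19 bases, so a read without its first base could be counted as either, and their seeds differ by this shift. Against miR-378c, miR-378d has the substitutions A6C and C21G.

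Both arms are shown for the 4 hairpins with the smallest p for the ratio of their arms, and miR-31-5p, miR-107-3p and miR-103-3p are shown as the more abundant miRNAs near the top of the ranking or related to it. Capitals mark the seed in each.
miR-15b-5p: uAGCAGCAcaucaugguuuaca
miR-15b-3p: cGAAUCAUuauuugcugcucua
miR-345-5p: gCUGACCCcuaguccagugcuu
miR-345-3p: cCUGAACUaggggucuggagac
miR-29c-5p: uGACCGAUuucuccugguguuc
miR-29c-3p: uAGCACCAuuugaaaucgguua
miR-434-5p: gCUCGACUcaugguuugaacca
miR-434-3p: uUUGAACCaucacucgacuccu
miR-31-5p: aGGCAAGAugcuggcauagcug
miR-107-3p: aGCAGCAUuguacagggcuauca
miR-103-3p: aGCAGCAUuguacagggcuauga
The miR-15b arms lie on the plus strand at chr3:69009775-69009796 and chr3:69009813-69009834 in an intron of Smc4, and the miR-345 arms at chr12:108836989-108837010 and chr12:108837027-108837048 on the plus strand in an intron of Slc25a47. The miR-434 arms lie opposite an exon of Rtl1, on the plus strand at chr12:109594528-109594549 and chr12:109594565-109594586, and the miR-29c arms on the plus strand at chr1:195037562-195037583 and chr1:195037600-195037621 in an exon of the noncoding A330023F24Rik. On the minus strand, miR-31-5p lies at chr4:88910614-88910635 in an exon of the lincRNA AL805899.1 and miR-107-3p at chr19:34820700-34820722 in an intron of Pank1. The first 7 bases of miR-107-3p and miR-103-3p are the seed of miR-15b-5p, and miR-103-3p and miR-107-3p differ at G22C.

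The libraries were deep, and the groups overlapped in each library measure. The total was 9198584 to 18152684 counts in HFLF and 12788313 to 15662851 in HF, and 544 to 633 miRNAs had a count in HFLF against 540 to 628 in HF. The hepatocyte miRNA miR-122-5p took 45.6% to 55.4% of the counts in HFLF and 46.1% to 57.0% in HF, the leading miRNA in every library, while the striated muscle list summed to 14.1 ± 4.73 CPM in HFLF and 13.9 ± 4.63 CPM in HF. The share of miR-122-5p averaged 49.4% ± 3.50 in HFLF and 50.04% ± 4.49 in HF, and the groups did not differ in it beyond their spread (2-sided exact permutation over 462 assignments, p = 0.766, and 0.766 adjusted over the 2 library measures). The median total count was 12098274.5 in HFLF and 14559181 in HF (exact permutation of the means, p = 0.290, 0.580 adjusted), and without HFLF replicate 6, the deepest library, that p was 0.0159. Over the 223 miRNAs at 10 CPM (counts scaled to 1000000 per library) or more, the median absolute log2 difference between a pair of libraries was 0.23 within HFLF, 0.24 within HF and 0.22 across the groups. A library was therefore as far from its own group as from the other one. In a bulk tissue, fewer cells of a type and less miRNA per cell cannot be told apart.

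Of the 488 miRNAs tested, 0 were called between HFLF and HF (0% called, smallest adjusted p = 0.986, edgeR quasi-likelihood test with Benjamini-Hochberg adjustment). Below an unadjusted p of 0.05 were 12 miRNAs (2.46%), 8 higher and 4 lower in HFLF. DESeq2 called 0 with 17 below that unadjusted p, and limma on the authors' deposited log2 values called 0 of 171 with 0 below it. The groups did not overlap for 2 miRNAs (0.41%), miR-378b and miR-434-5p, both lower in every HFLF library than in any HF library. With LF as the other side, 0 of 488 were called for HFLF (0%) with 34 below an unadjusted p of 0.05, and 0 of 488 for HF (0%) with 30 below it. These comparisons share libraries with the one described here.

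How large a difference the libraries could still hide depended on abundance. For the 122 miRNAs at 100 CPM or more, the 95% interval of the log2 difference lay within 2-fold for all 122 and within 1.5-fold for 114, and the largest absolute difference was 0.29. Of the 47 miRNAs at 1000 CPM or more, 46 were held within 1.5-fold, with a largest absolute difference of 0.15 and a median SE of 0.09. Between 10 and 100 CPM the interval was within 2-fold for 93 of 101 miRNAs. Below 10 CPM this was so for 35 of 265, and 32 of these rare miRNAs differed by more than 2-fold with a median SE of 0.70 over the class. Each interval covers 1 miRNA and not all of them jointly.

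**Figure D1:**
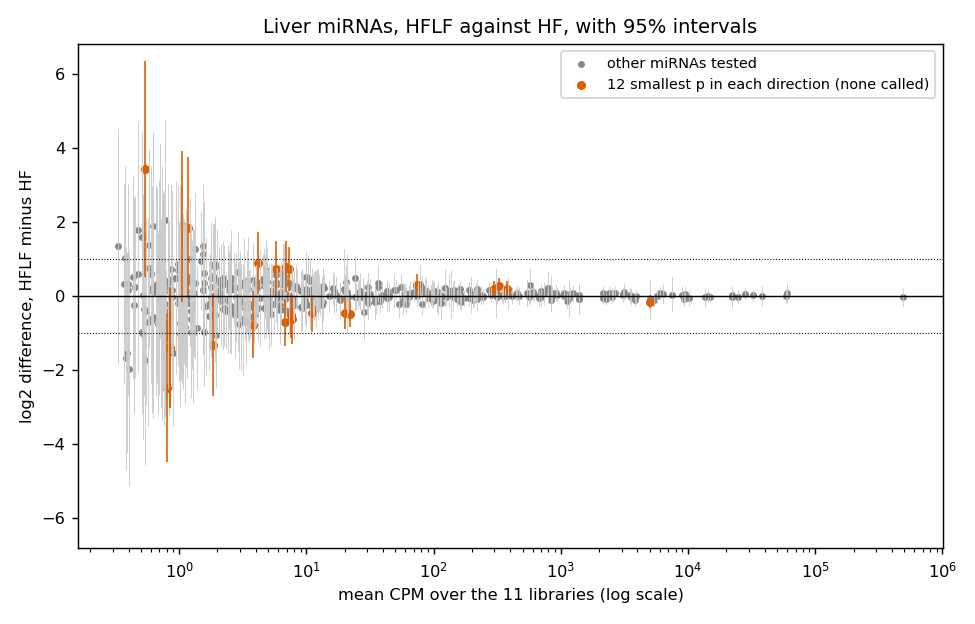
Log2 difference, HFLF minus HF, against mean CPM over the 11 libraries (log scale), 1 point per tested miRNA with its 95% interval as a vertical line and the 2-fold limits dotted. Orange marks the 12 smallest p in each direction, none of them called, and miR-296-5p is left off because HF had no count of it. The intervals narrow with abundance, and all 122 miRNAs at 100 CPM or more stay within the dotted lines.

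Most counts came from a few miRNAs, and the group means of these lay close together. For miR-122-5p the mean was 487423 ± 79315 CPM in HFLF and 498749 ± 103160.0 in HF (log2 difference -0.03 ± 0.12, 95% interval -0.29 to 0.22). HFLF replicate 1 and HF replicate 1 were the highest library of their group for it. Both also had the lowest scaling (TMM) factor of their group, 0.885 and 0.844, and a low factor raises every CPM value of a library. Next came miR-21a-5p, a miRNA induced in injured and proliferating tissue, at 61470.3 ± 12824 CPM in HFLF and 58164 ± 6491 in HF (0.08 ± 0.13). The tumour-suppressive miR-26a-5p, linked to insulin sensitivity in mouse liver, had 28389 ± 2053 CPM in HFLF and 27119 ± 2585 in HF (0.07 ± 0.09), and miR-30a-5p had 24624 ± 2402 CPM in HFLF and 25033 ± 2468 in HF (-0.02 ± 0.09). The liver and gut miRNA miR-192-5p measured 20977 to 23803 CPM in HFLF livers with a median of 22188, against 20058, 21162, 22083, 24024 and 23075 CPM in HF replicates 1 to 5. These ranges overlapped, and its log2 difference was 0.02 ± 0.08 (95% interval -0.15 to 0.18). Its cluster partner miR-194-5p differed by 0.06 ± 0.10 and miR-148a-3p, which limits the LDL receptor, by -0.06 ± 0.11, where HF replicate 1 was lowest. All 13 tested members of the hepatocyte list were uncalled, with 7 above 0, 6 below and a median of 0.02, against 0.04 over all 488 miRNAs.

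The let-7 5p arms together held 170338 ± 23604 CPM in HFLF and 170056 ± 16801 CPM in HF (n = 6 and 5). Their sum ran from 141737 to 207301 CPM with a median of 169965 in HFLF, against 198484, 170658, 155819, 160606 and 164712 CPM in HF replicates 1 to 5. The HF values all lay inside the HFLF range, and the highest library of each group was its replicate 1, which also had its lowest TMM factor. None of the 9 members was called, and their log2 differences ran from -0.06 to 0.06 with a median of 0.02, which became -0.0062 with RLE size factors and -0.26 with HF replicate 6 and LF replicate 4 included. The most abundant, let-7f-5p, measured 49833 to 66860.4 CPM in HFLF livers with a median of 59488, against 63776, 60633, 54302, 57700.4 and 59013 CPM in HF replicates 1 to 5. Its difference was -0.0021 ± 0.09 (95% interval -0.18 to 0.18), and all HF libraries lay inside the HFLF range. For let-7a-5p the values were 29881 to 49213 CPM in HFLF livers with a median of 36965, against 48439, 38009.8, 33827, 34049.8 and 35785 CPM in HF replicates 1 to 5. Here too the first replicate of each group stood highest, and the difference was -0.0035 ± 0.13 (95% interval -0.27 to 0.26). The next members were let-7g-5p with 32657 ± 2601 CPM in HFLF and 32286 ± 1385 in HF (0.02 ± 0.08) and let-7c-5p with 22013 ± 4987 CPM in HFLF and 22408 ± 4075 in HF (-0.03 ± 0.15). The members measured least closely were let-7b-5p, at 0.04 ± 0.22, and let-7e-5p, at -0.06 ± 0.24 around 1138 ± 310.1 CPM in HFLF and 1185 ± 389.5 in HF. Closest measured was let-7i-5p, at 0.03 ± 0.07, followed by let-7g-5p. The remaining let-7d-5p and miR-98-5p differed by 0.06 ± 0.13 and 0.03 ± 0.09.

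**Figure D2:**
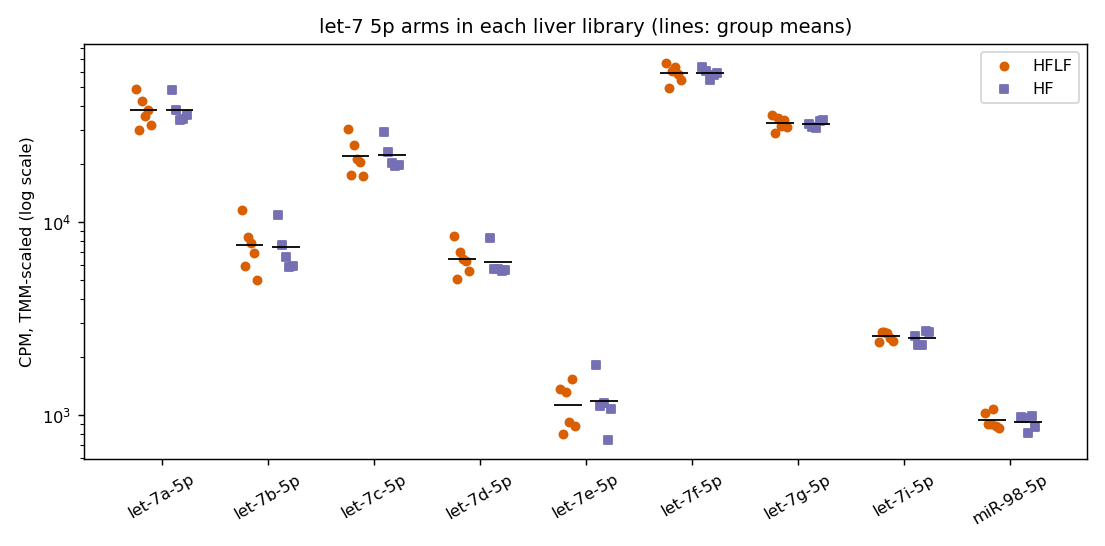
CPM of each let-7 5p arm in the 6 HFLF (orange circles) and 5 HF (purple squares) liver libraries on a log axis, with group means as lines. Each pair of lines lies almost level, and HFLF replicate 1 and HF replicate 1, the first point of each group, stand highest for let-7a, let-7b, let-7c, let-7d and let-7f.

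Summed by seed, the let-7 seed family of 11 miRNAs, which adds let-7k and miR-1961 to the 5p arms, differed by -0.04 ± 0.10 (95% interval -0.24 to 0.16). The seed sums left out miRNAs without a RefSeq sequence (407 of the 488 tested had one) and were scaled on the remaining counts. On that scale miR-378b, alone in its seed, averaged 40.6 CPM in HFLF livers. Seed and single-miRNA differences are therefore scaled differently. The passenger side of the hairpins gave no call either. Among the 10 let-7 3p arms tested, 7 lay above 0 with a median of 0.08, led by let-7d-3p with 856 ± 292 CPM in HFLF and 826 ± 214 in HF (0.05 ± 0.23) and let-7a-1-3p (0.08 ± 0.12). Over all seeds with a sequence that passed the filter, 0 of 337 families were called (0%, smallest adjusted p = 0.990, edgeR), with 11 below an unadjusted p of 0.05. Of these 11, 10 had a single member, and the exception was the seed of miR-10a-5p and miR-10b-5p at -0.19 ± 0.09. The seed family of miR-15 and miR-16, with 10 members, differed by 0.05 ± 0.09, that of miR-103 and miR-107 by 0.06 ± 0.08, and that of the miR-29 3p arms by 0.03 ± 0.09.

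The clearest separation was that of miR-378b, a relative of the miR-378a that sits within Ppargc1b and acts in mitochondrial metabolism. It measured 15.8 to 20.9 CPM in HFLF livers with a median of 19.3, against 26.8, 26.3, 22.7, 27.7 and 27.5 CPM in HF replicates 1 to 5. Every HFLF library lay below every HF library, and HF replicate 3 was the lowest of its group. The log2 difference was -0.49 ± 0.17 (95% interval -0.84 to -0.13, unadjusted p = 0.00929, adjusted p = 0.986), and LF averaged 20.9 ± 4.49 CPM. Its longer relative miR-378c, which has all but the last base of miR-378b after its own first base, had 309.8 ± 21.5 CPM in HFLF and 317 ± 19.5 in HF and differed by -0.03 ± 0.09. The abundant guide arm miR-378a-3p differed by -0.05 ± 0.08 around 2122 ± 82.7 CPM in HFLF and 2204 ± 166 in HF, and miR-378d by -0.20 ± 0.13. The other arm, miR-378a-5p, lay on the other side, at 81.8 ± 11.9 CPM in HFLF and 65.9 ± 11.9 in HF (0.31 ± 0.13, unadjusted p = 0.0274). Thus 1 of the 5 family members was above 0 and 4 below, with 0 called. Summed, the family had 2589 ± 97.4 CPM in HFLF and 2678 ± 174 CPM in HF.

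Among more abundant miRNAs the smallest unadjusted p was that of miR-31-5p, a miRNA of epithelial and mesenchymal cells. It measured 289 to 418 CPM in HFLF livers with a median of 346, against 318, 255, 295, 325 and 286 CPM in HF replicates 1 to 5. Of the 6 HFLF libraries 5 lay above every HF library, the exception being replicate 3, and the log2 difference was 0.26 ± 0.11 (unadjusted p = 0.0208). This order depended on the scaling. On the scale of the seed sums, where miR-31-5p is alone in its seed, HFLF replicates 2 and 4 (720 and 719 CPM) also lay below HF replicate 4 (729 CPM). Next was miR-15b-5p, of the miR-15 and miR-16 family that restrains the cell cycle, with 294 to 332 CPM in HFLF livers with a median of 323, against 275, 247, 248, 307 and 304 CPM in HF replicates 1 to 5. Its lowest HFLF library lay under 2 HF libraries, and the difference was 0.20 ± 0.10 (unadjusted p = 0.0452), with LF at 316 ± 35.1 CPM. The insulin-related miR-107-3p, from an intron of the pantothenate kinase gene Pank1, had 399.5 ± 35.9 CPM in HFLF and 347 ± 24.4 in HF, with 314 ± 49.95 in LF. Its HFLF and HF libraries overlapped at 0.20 ± 0.10 (unadjusted p = 0.0578), and with HF replicate 6 and LF replicate 4 included the difference was -0.32. Its near-copy miR-103-3p had 2747 ± 209 CPM in HFLF and 2583 ± 288 in HF (0.09 ± 0.08). On the lower side miR-10a-5p, a miRNA of the Hox clusters, had 4757 ± 467 CPM in HFLF and 5273 ± 643 in HF (-0.15 ± 0.09), and miR-181a-2-3p had 17.2 ± 4.64 CPM in HFLF and 23.6 ± 4.05 in HF (-0.46 ± 0.21, unadjusted p = 0.0417).

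**Figure D3:**
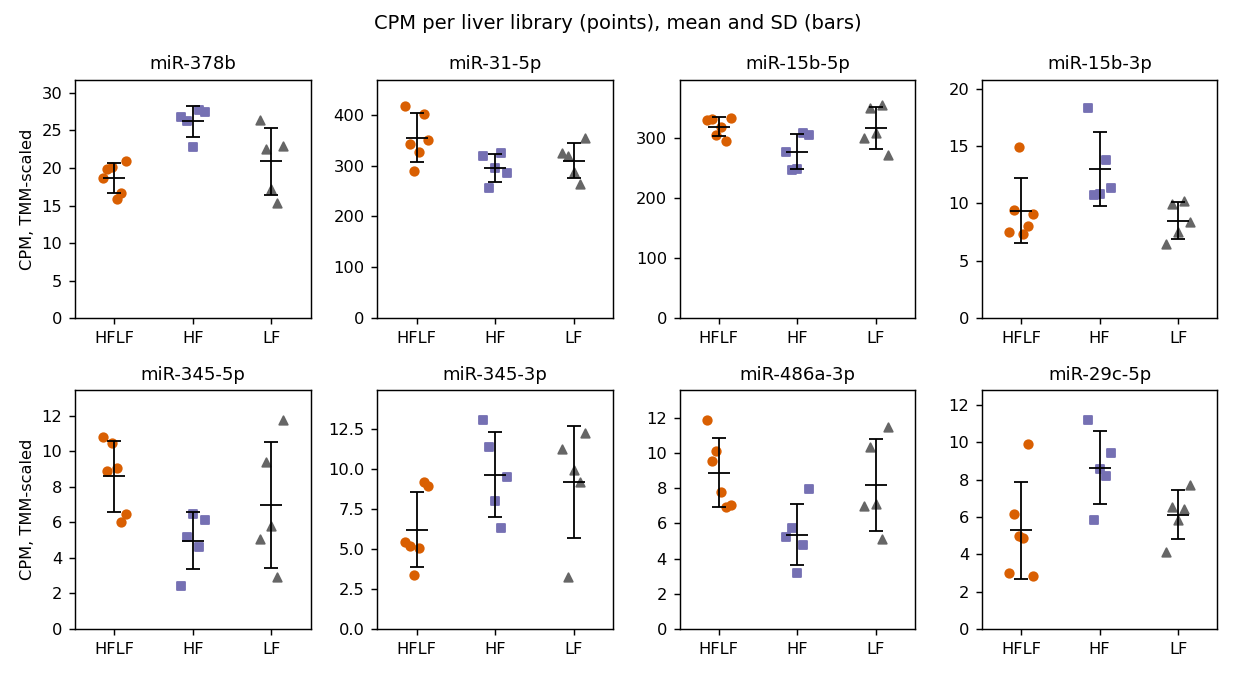
CPM of 8 miRNAs in each HFLF, HF and LF liver library (points), with the group mean and SD as bars and each axis starting at 0. For miR-378b all 6 HFLF points (15.8 to 20.9) lie below the 5 HF points (22.7 to 27.7), while the groups overlap in the other 7 panels.

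The other members near the top of the ranking were rare. The 3p arm miR-486a-3p had 8.89 ± 1.96 CPM in HFLF and 5.36 ± 1.72 in HF, with 8.20 ± 2.61 in LF (0.72 ± 0.28), and miR-505-5p had 5.25 ± 1.23 CPM in HFLF and 2.82 ± 1.497 in HF (0.89 ± 0.41), where HF replicate 4 stood above the rest of its group. For miR-434-5p, of the imprinted Dlk1-Dio3 region, the raw counts were 0, 0, 8, 1, 4 and 8 in HFLF replicates 1 to 6, against 14, 17, 39, 24 and 13 in HF. The groups did not overlap, and the fitted log2 difference was -2.49 ± 0.97 (unadjusted p = 0.0164). For miR-376c-3p, of the same region, the counts were 4, 13, 9, 13, 0 and 41 in HFLF and 5, 0, 0, 0 and 0 in HF. Lastly miR-296-5p had 0, 4, 10, 24, 0 and 15 counts in HFLF and 0 in all 5 HF libraries. Pooled, its 0.700 CPM in HFLF was 16.7-fold the floor of 0.0418 CPM that 3 counts over the HF group would give. This pooled ratio does not take in the spread between libraries, and 2 of 6 HFLF libraries also had no count.

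Several hairpins appeared in the ranking with their arms on opposite sides. The 5p to 3p ratio, in which library scaling cancels, was tested for every hairpin with enough counts in both arms. It uses the same counts and is no separate support for the differences of single arms. Of 117 hairpins 0 were called (0%, smallest adjusted p = 0.324, limma), with 10 below an unadjusted p of 0.05. The arms of 57 of the 117 had differences of opposite sign, and so did those of 6 of the 10. For miR-15b the log2 ratio ran from 4.35 to 5.44 in HFLF, against 3.91, 4.52, 4.51, 4.47 and 4.74 in HF replicates 1 to 5. HFLF replicate 3 lay among the HF values, and the other 5 HFLF libraries above them. The means were 5.12 ± 0.40 in HFLF and 4.43 ± 0.31 in HF, with 5.22 in LF, and the difference was 0.69 ± 0.20 (unadjusted p = 0.00377, adjusted p = 0.324). Leaving out HFLF replicate 3 gave 0.84 and the adjusted p was then 0.0148. That library held the most miR-15b-3p of its group, and the arm had 9.38 ± 2.83 CPM in HFLF and 13.0 ± 3.22 in HF (-0.47 ± 0.24).

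For miR-345, whose host gene Slc25a47 encodes a mitochondrial carrier of liver, the 5p arm had 8.61 ± 1.999 CPM in HFLF and 4.97 ± 1.61 in HF (0.79 ± 0.33). Its 3p arm had 6.20 ± 2.35 CPM in HFLF and 9.64 ± 2.67 in HF (-0.63 ± 0.32). The log2 ratio averaged 0.52 ± 0.88 in HFLF and -0.98 ± 0.86 in HF, a difference of 1.51 ± 0.58, and 2 HFLF libraries lay among the HF values. For miR-29c, whose 3p arm restrains collagen synthesis, the ratio was -5.54 ± 0.75 in HFLF and -4.57 ± 0.40 in HF (-0.98 ± 0.34). The rare arm miR-29c-5p measured 2.83 to 9.89 CPM in HFLF livers with a median of 4.93, against 11.2, 5.86, 8.58, 8.21 and 9.42 CPM in HF replicates 1 to 5. The groups overlapped through HFLF replicates 2 and 5 and HF replicate 2. Its partner miR-29c-3p had 230.5 ± 44.3 CPM in HFLF and 204 ± 33.5 in HF (0.18 ± 0.14). The ratio of miR-434 was -5.003 ± 1.73 in HFLF and -1.92 ± 0.18 in HF (-3.09 ± 0.95), on 5p counts at or near 0, and its 3p arm differed by 0.04 ± 0.31. None of these ratios passed the adjusted threshold.

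**Figure D4:**
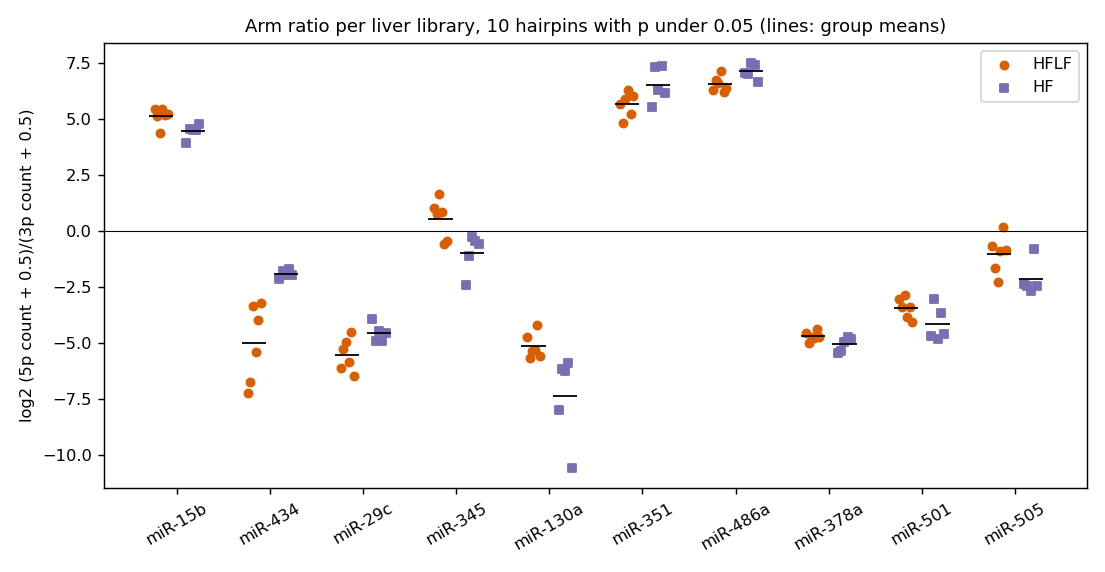
Log2 ratio of 5p to 3p counts (0.5 added to each) in every HFLF (orange circles) and HF (purple squares) liver library for the 10 hairpins with an unadjusted p under 0.05, with group means as lines. For miR-15b 5 of the 6 HFLF points lie above all HF points, and the spread is widest for miR-434 and miR-130a, whose 5p counts are low.

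The lists of miRNAs by cell type and pathway gave 0 called members throughout. The erythroid list, which marks red cells, had a median log2 difference of 0.29 with 7 of 7 members above 0, beside a median of 0.04 and 283 of 488 above 0 among all miRNAs tested. Its sum was 2440.5 ± 607 CPM in HFLF and 2049 ± 409.6 CPM in HF. This sum adds both miR-486a-5p and miR-486b-5p, so reads that match both may enter it more than once. The red cell miRNA miR-451a measured 519.8 to 875 CPM in HFLF livers with a median of 558, against 342, 366, 365, 809 and 645 CPM in HF replicates 1 to 5. HF replicates 1 to 3 lay below every HFLF library and HF replicates 4 and 5 among them, and the difference was 0.29 ± 0.22. The members are not independent, since miR-486a-5p and miR-486b-5p had nearly the same counts (0.23 ± 0.20 and 0.23 ± 0.19) and miR-144-5p (0.33 ± 0.23) comes from the hairpin cluster of miR-451a. Over the other settings the median of the list ran from 0.14 to 0.49, and with RLE size factors 6 of 7 members lay above 0.

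Among metabolic lists, the insulin and glucose list had 10 of 12 members above 0 with a median of 0.08, and the cholesterol and lipoprotein list 6 of 10 with a median of 0.02. The miR-29 family summed to 6552 ± 666 CPM in HFLF and 6228 ± 411 CPM in HF, 3 of its 7 members lying above 0, with miR-29a-3p at 0.07 ± 0.08. The miR-30 family had 5 of 11 above 0 and a median of -0.01, with miR-30d-5p at -0.04 ± 0.07 and miR-30c-5p at -0.09 ± 0.09. The stress miRNA miR-34a-5p, a target of p53 that rises in fatty liver, had 40.5 ± 8.61 CPM in HFLF and 31.9 ± 13.1 in HF (0.35 ± 0.24). The growth-linked clusters miR-17-92 and miR-106b-25 had 11 of 16 above 0 and a median of 0.12, with miR-93-5p at 0.13 ± 0.09 and miR-92a-3p at -0.10 ± 0.10.

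Lists of other cell types gave no called member either. The stellate, fibroblast and smooth muscle list had 4 of 10 above 0, and its leading miR-143-3p had 13356 ± 2723 CPM in HFLF and 13699.9 ± 831 in HF (-0.04 ± 0.13). HFLF replicate 1 was lowest of its group for the stellate-cell miRNA miR-199a-3p, at 726 CPM, and the difference was -0.07 ± 0.19. The macrophage and granulocyte list summed to 703 ± 48.3 CPM in HFLF and 686 ± 103 CPM in HF. In it the inflammation-induced miR-146a-5p measured 283 to 349.5 CPM in HFLF livers with a median of 326, against 211, 221, 409, 385 and 230.3 CPM in HF replicates 1 to 5. HF replicates 3 and 4 stood above every HFLF library and the other 3 HF libraries below them all, around a difference of 0.16 ± 0.16. The neutrophil miRNA miR-223-3p differed by -0.02 ± 0.15, and the lymphocyte miRNAs miR-150-5p and miR-342-3p by 0.15 ± 0.16 and 0.12 ± 0.14.

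The Dlk1-Dio3 region, with 21 of its 109 miRNAs tested, summed to 58.7 ± 27.6 CPM in HFLF and 57.6 ± 16.8 CPM in HF, and LF to 108 ± 44.1 CPM. Its leading miR-379-5p ranged over 4.41 to 23.7 CPM in HFLF livers with a median of 10.2, against 7.01, 12.9, 18.6, 6.27 and 7.40 CPM in HF replicates 1 to 5. HFLF replicate 2 was the highest, and the difference was 0.07 ± 0.46. The Sfmbt2 cluster, a rodent placental cluster, summed to 33.5 ± 7.56 CPM in HFLF and 36.6 ± 8.13 CPM in HF and had a median of -0.28, with 10 of 22 members above 0. The germ cell and epididymis list summed to 25.4 ± 6.96 CPM in HFLF and 29.4 ± 5.25 CPM in HF and had a median of -0.28 with 4 of 14 above 0, among them miR-871-3p at -0.33 ± 0.41. The epithelial miR-200b-3p had 391 ± 88.9 CPM in HFLF and 375 ± 80.1 in HF (0.06 ± 0.20), and the endocrine miR-375-3p had 7.70 ± 2.98 CPM in HFLF and 5.30 ± 3.11 in HF (0.54 ± 0.42). Each of these lists had 0 called members.

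**Figure D5:**
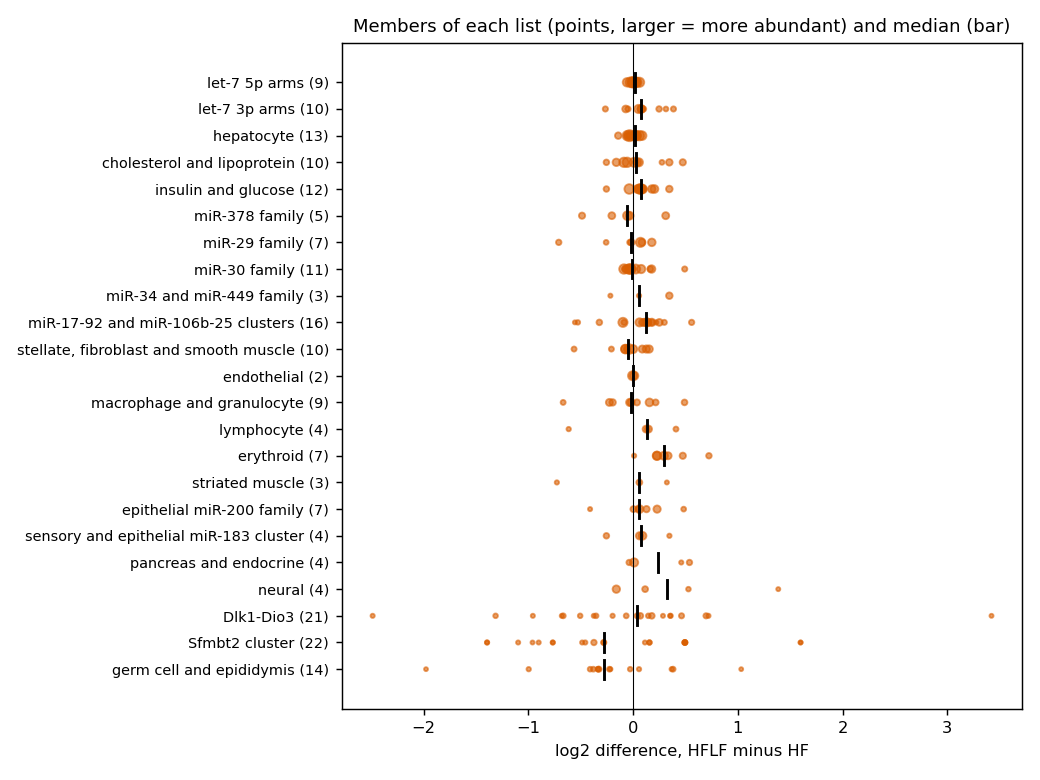
Log2 difference, HFLF minus HF, of each tested member of 23 lists (points, larger when more abundant), with the list median as a black bar and the number of members in brackets. Lists of abundant miRNAs, such as the let-7 5p arms (median 0.02) and hepatocyte (0.02), gather at 0, and the members of rare lists, such as Dlk1-Dio3, Sfmbt2 and germ cell and epididymis, spread over a wider range.

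Whether the difference between HFLF and HF was another one in liver than in epididymal white fat (eWAT) was tested in a joint fit. The fit held the 16 retained liver libraries and all eWAT libraries, the 12 of these groups and those of LF. Of 719 miRNAs 0 were called (0%, smallest adjusted p = 0.0966, edgeR), with 67 below an unadjusted p of 0.05, and DESeq2 called 7. The smallest p was that of miR-409-5p, of the Dlk1-Dio3 region, with counts of 0, 0, 16, 5, 12 and 9 in liver HFLF and 0 in all 5 liver HF libraries. In eWAT it had 86 to 239 counts in HFLF and 103 to 255 in HF. It was called without liver HFLF replicate 1 (adjusted p = 0.0265) or 2 (adjusted p = 0.0249), while miR-300-3p was called without liver HFLF replicate 4 (adjusted p = 0.0477) and miR-376c-3p without liver HF replicate 1 (adjusted p = 0.0424). For miR-434-5p the joint fit gave -2.47 ± 0.60 in liver and -0.0061 ± 0.47 in eWAT, a difference between the tissues of -2.46 ± 0.76 (adjusted p = 0.276, edgeR), whereas DESeq2 called it (-2.48, adjusted p = 0.0192). Its eWAT counts were 463 to 779 in HFLF and 399 to 521 in HF. The liver side of these rests on few counts. Neither miR-409-5p nor miR-300-3p passed the count filter of the liver fit. Both were tested only once the eWAT libraries were included, so their calls are not evidence of a difference in liver. The joint fit treats all libraries as independent, and the labels do not state whether a liver and an eWAT library with one title number share a mouse. With each diet group and number as a block across the tissues, an alternative chosen after the data were seen, edgeR called 0 of 719 miRNAs, with 17 below an unadjusted p of 0.05, and miR-434-5p differed by -2.55 ± 0.91 (adjusted p = 1).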

How the data were processed

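Small RNA of 36 libraries was measured with the NEXTFLEX Small RNA-seq v3 kit from 1 ug of total RNA, per the labels' protocols. The submitters' processing notes name cutadapt and Bowtie, without versions, and the build GRCm38.p6. The authors deposited 2118 lines of counts, each for a mature miRNA from a given precursor, and log2 CPM values for 171 miRNAs in 16 liver libraries. The line with the highest total was used for each of 1966 mature miRNAs, since 51 of the 87 with several lines had identical ones. Column letters R, H and C were taken as HFLF, HF and LF from the abbreviations only.

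The test was that of edgeR 4.0.16 under R 4.3.3, with TMM factors, filterByExpr (minimum count 10, minimum total 15), and the robust quasi-likelihood F test on the 16 retained liver libraries in 3 groups, so that LF lends to the estimate of spread. The threshold was a Benjamini-Hochberg adjusted p under 0.05. CPM values are TMM-scaled, with mean ± SD over 6 HFLF and 5 HF libraries, and log2 differences have their SE. Arm ratios were log2 of counts with 0.5 added, for arms with a mean count of 10 or more, fitted in limma 3.58.1. DESeq2 1.42.0 was an alternative, with other scalings, filters and library sets. Detection floors are 3 counts, and these cover counting error only, since PCR reads are not independent molecules. Replicates of a group differed by a chi-square of at least 72.1 per degree of freedom, so all were counted as separate libraries. The code was tested on simulated data.

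The miRNAs named were drawn from the 12 with the smallest p in each direction, the 10 most abundant, the let-7 5p arms, up to 4 abundant members of each list, and the leading seed, arm and tissue results. Not every miRNA of that selection is described, and miR-501-5p, miR-8114, miR-190b-5p, miR-669a-3p and miR-669o-3p are among those left out. Members and lists were chosen with earlier results of these data known.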

Additional observations from a re-analysis of the deposited data

Results flagged for a closer look

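Each value was examined over the 6 HFLF and over the 5 HF libraries, 194 sets in all. In 15 of the 194 the highest or lowest library lay far from the rest of its group relative to the group's range. Chance gives this in about 1 in 20 sets, and the sets share the same libraries. HF replicate 1 made up 7 of the 15, and CPM values without TMM scaling were not examined in this way. That library had the lowest TMM factor of its group, 0.844 against 1.03 to 1.08 in the others, which raises all its CPM values. It was the highest HF library for let-7a-5p (48439 CPM, the others 33827 to 38009.8), let-7d-5p (8336 CPM, the others 5572 to 5759), let-7d-3p (1197 CPM) and the let-7 3p sum (1769 CPM). It was also the highest for the hepatocyte sum (724569 CPM, the others 490317 to 557391) and for miR-376c-3p (0.427 CPM, the others 0), and the lowest for miR-148a-3p (7971 CPM, the others 10483 to 11292). In the same group HF replicate 4 was high for miR-505-5p (5.39 CPM) and HF replicate 3 low for miR-378b (22.7 CPM).

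Among HFLF libraries, replicate 1 was low for miR-199a-3p (726 CPM, the others 1332 to 1683) and high for miR-375-3p (13.4 CPM). HFLF replicate 2 was high for miR-543-3p (3.47 CPM) and for the Sfmbt2 sum (48.5 CPM, the others 27.7 to 32.6). HFLF replicate 3 was high for both miR-15b-3p (14.9 CPM, the others 7.30 to 9.45) and miR-27a-5p (10.1 CPM, the others 4.78 to 6.31).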

How the results depend on the processing

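No setting gave a call between HFLF and HF for a single miRNA or a seed family, and without each library in turn 8 to 22 miRNAs had an unadjusted p under 0.05. Without a filter there were 156 of 1051 below that p, and HF against LF had 3 calls (miR-1a-3p, miR-203b-3p and miR-411-5p). The tissue comparison had 1 call without a filter and 7 with DESeq2. Without each library it had 0 to 1 (miR-409-5p without HFLF 1 or 2, miR-300-3p without HFLF 4, miR-376c-3p without HF 1), and the arm ratio 0 to 1 (miR-15b without HFLF 3). Of these, miR-409-5p and miR-300-3p had not passed the count filter of the liver fit. The difference in miR-122-5p share ran from -1.88 to 1.06 percentage points without each library, and that in total count from -2.82 to -1.03 in units of 1000000 counts (exact permutation p = 0.0159 without HFLF replicate 6). Intervals were widest for the 265 miRNAs under 10 CPM, of which 35 had an interval within 2-fold. How far depth or the spread between libraries accounts for this was not tested.

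Replicate numbers were not taken to pair libraries, since the labels do not state such a pairing. For miRNAs at 10 CPM or more, the deviations of log2 CPM from the group means were compared between same-numbered HFLF and HF libraries. Their correlations were 0.01, 0.06, 0.06, 0.23 and 0.06. With the replicate block 0 miRNAs were called, with 19 below an unadjusted p of 0.05, and the log2 differences that changed sign were let-7a-5p 0.014 and miR-192-5p -0.0049.

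Of 71 miRNAs from the named selection, 39 kept the direction of their log2 difference under every setting in which they were compared. The other 32 did not, none of them was called under any setting, and the cause was not tested. The 71 leave out miR-296-5p. Rare miRNAs were compared under fewer alternatives, such as 19 for miR-376c-3p and 20 for miR-434-5p, against 22 for miR-31-5p. With RLE size factors the values that changed sign were let-7g-5p -0.0062 and miR-192-5p -0.0082, with DESeq2 let-7g-5p -0.0062 and miR-192-5p -0.0082, without a filter let-7g-5p -0.0058 and miR-192-5p -0.0088 and with HFLF and HF alone let-7g-5p -0.00051 and miR-192-5p -0.0027. Under plain CPM it was let-7a-5p 0.00093. With lines summed these were let-7g-5p -0.020, miR-192-5p -0.022, let-7b-5p -0.0011, let-7i-5p -0.011 and miR-98-5p -0.015, and with library sizes that omit miR-122-5p let-7g-5p -0.026, miR-192-5p -0.027, let-7b-5p -0.0062, let-7i-5p -0.016 and miR-98-5p -0.018. With HF replicate 6 and LF replicate 4 included they were miR-107-3p -0.32, let-7g-5p -0.037, miR-30d-5p 0.0022, let-7b-5p -0.49, let-7d-5p -0.21, miR-98-5p -0.075, miR-148a-3p 0.099, miR-29a-3p -0.15, miR-29c-3p -0.77, miR-29b-3p -0.49, miR-34a-5p -0.67, miR-92a-3p 0.085, miR-144-5p -0.26 and miR-128-3p 0.022.

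Without each library in turn, the ranges that crossed 0 were let-7a-1-3p -0.025 to 0.10, let-7a-5p -0.12 to 0.079, let-7b-5p -0.15 to 0.20, let-7c-5p -0.17 to 0.068, let-7d-3p -0.16 to 0.20, let-7d-5p -0.058 to 0.17, let-7e-5p -0.21 to 0.13, let-7f-5p -0.079 to 0.015, let-7g-5p -0.051 to 0.022, let-7i-5p -0.052 to 0.040, miR-122-5p -0.14 to 0.082, miR-143-3p -0.14 to 0.032, miR-192-5p -0.045 to 0.030, miR-194-5p -0.016 to 0.097, miR-199a-3p -0.17 to 0.026, miR-200b-3p -0.086 to 0.14, miR-21a-5p -0.059 to 0.12, miR-223-3p -0.13 to 0.020, miR-30a-5p -0.093 to 0.011, miR-379-5p -0.33 to 0.32, miR-434-3p -0.13 to 0.32 and miR-98-5p -0.070 to 0.040.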
